A study of Mus musculus with 4 samples.

Results

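The chromosomal region around Myc and Pvt1 held 38 of the 11220 ARID1A peaks in 4 peak lists from 266-6 cells. Its members are all peaks that overlap a window of 2.5 Mb, chr15:61000000-63500000 in the mouse build mm9. The window was chosen from the deposited values: it holds the peak with the highest score of EGF replicate 1. The rank of that peak and the presence of peaks with EGF are therefore descriptions here, and no test result is given for them. Control replicates 1 and 2 had 13 and 22 peaks in the window, and EGF replicates 1 and 2 had 1 and 2.

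The study mapped ARID1A by chromatin immunoprecipitation with sequencing (ChIP-seq) in 266-6, a mouse pancreatic acinar cell line that derives from a tumour of a transgenic mouse carrying a viral T antigen under an elastase promoter. All cells were kept without serum for about 14 h. The 2 control libraries came from cells that then received 0.1% bovine serum albumin for 8 h. The 2 EGF libraries came from cells that received 40 ng/ml epidermal growth factor for 8 h. The line is 1 established line, no genotype differs between the groups, and the labels do not say whether the duplicates are separate cultures, so any spread between them may be technical.

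Myc encodes a transcription factor of the basic helix-loop-helix family that drives cell growth and division and whose transcription responds to growth factors such as EGF. Pvt1, transcribed from the neighbouring locus, is a long noncoding RNA, and the pair is often amplified together in tumours. The surrounding land is poor in protein-coding genes and is known for distant enhancers that act on Myc in different tissues. ARID1A is a DNA-binding subunit of the BAF form of the SWI/SNF chromatin remodelling complex, which moves or evicts nucleosomes at enhancers and promoters. The RefSeq gene order, taken from another build (GRCm38.p6) and used for order only, lists 0 genes between Myc and Pvt1. It lists 16 entries between Myc and Gsdmc, the next protein-coding gene, and Pvt1 is one of them.

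Distances below run from the peak summit to a Myc start of 61.82 Mb, which is given only to the nearest 10 kb. The extent of Pvt1 in mm9 was not used here, so no peak is placed inside or outside that gene. Each peak has a deposited fold, the ratio of ChIP reads at its summit to the local input background, with 1 added to both. Reads at the summit were recovered from the deposited fold and p, and are given as multiples of the genome-wide mean of their library. The mean depth was 1.06 to 1.23 ChIP reads per 200 bp of genome over the 4 libraries. The genome-wide input stood at 0.771 reads per 200 bp for the controls and was lower, at 0.506, with EGF, the same for the duplicates of each, so the input depth and the treatment cannot be told apart.

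In control cells, ARID1A peaks lay mostly downstream of Myc, between 118 and 946 kb from its start. When peaks of the 4 lists that overlap were joined, the window had 21 sites: 3 before or at the Myc start, 0 in the rest of the first 100 kb after it, 18 between 100 and 1000 kb, and 0 beyond. Control replicate 1 had 11 of its 13 peaks in that downstream stretch and control replicate 2 had 20 of its 22. The 35 control peaks ranged in fold from 2.76 to 17.5, and the peak 604 kb downstream was the highest of the window in both control lists.

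**Figure D1:**
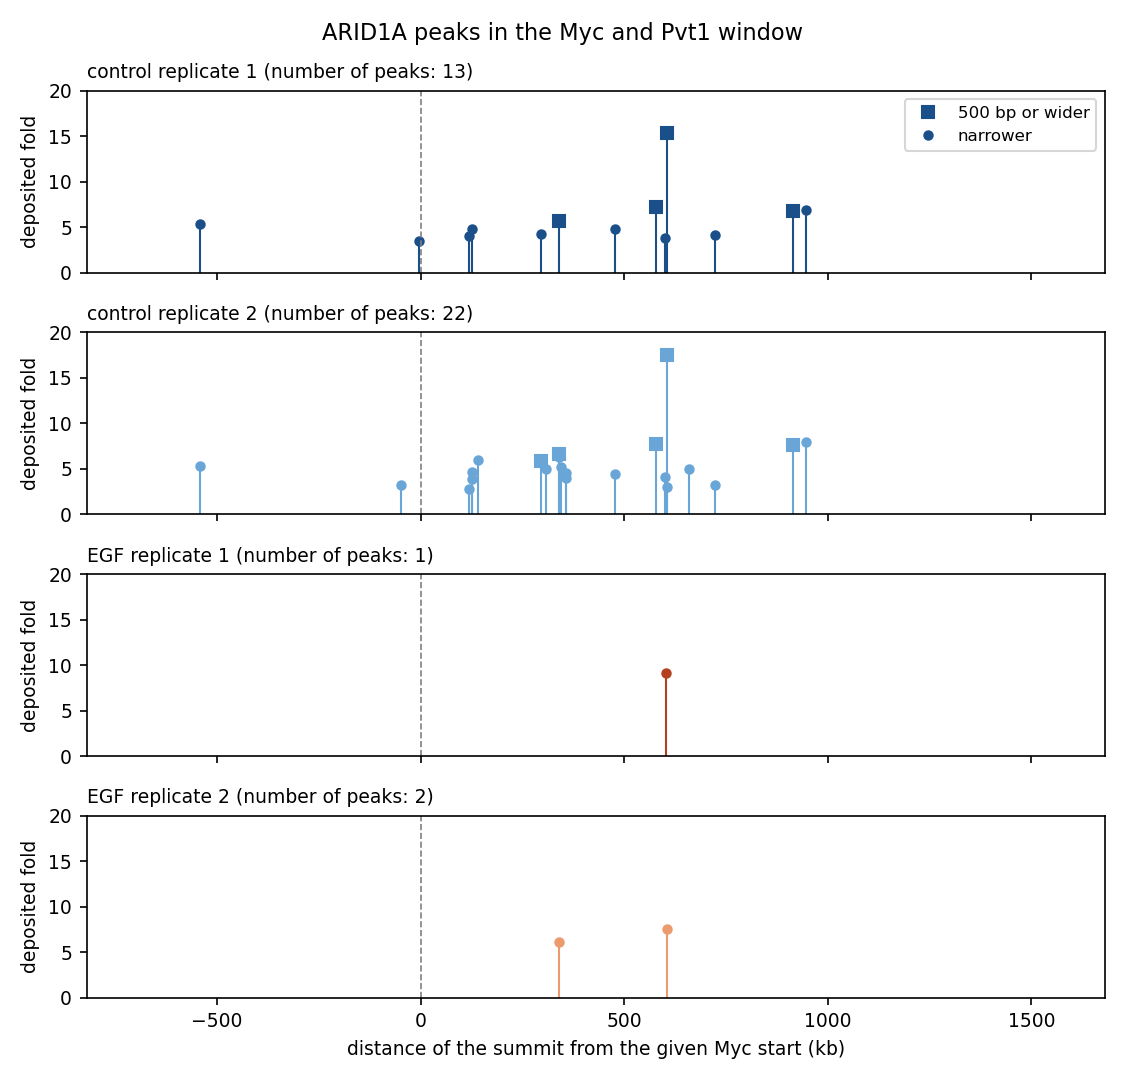
Deposited fold (vertical axis, a ratio) of each peak against the distance of its summit from the given Myc start (horizontal axis, kb), with 1 panel per library; squares mark peaks of 500 bp or wider and the dashed line the Myc start. The tallest control peak of the window lies at 604 kb. In EGF replicate 1 the peak there is the only one of the window, which was chosen by it, and in EGF replicate 2 it is the taller of 2.

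Few peaks lay upstream of Myc. The farthest lay 542 kb before Myc and was found in both control lists, at chr15:61278104-61278330 in control replicate 1 (fold 5.29) and at chr15:61277889-61278262 in control replicate 2 (fold 5.25). Its widths were 227 and 374 bp. Control replicate 2 alone had a peak 48.8 kb before Myc, 200 bp wide, with a fold of 3.18. That peak had 31.7 times the genome mean at its summit, a level above most others of the window. However, its local input was 9.07 times the genome-wide input background, the highest of the 35 control peaks. That input was 7 reads per 200 bp.

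At the Myc start itself, control replicate 1 had a peak at chr15:61816600-61816913, 314 bp wide, with a fold of 3.46 and 25 reads at the summit. This position is within the rounding of the Myc start, so which side of the start it lies on was not determined. The peak had the lowest fold of the 13 in that list, and neither control replicate 2 nor either EGF list had a peak there. A peak at the start of Myc was therefore called in 1 of the 4 lists.

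The first cluster downstream of Myc began at 118 kb. The site at 118 kb had folds of 3.98 and 2.76 in control replicates 1 and 2, the second value being the lowest among the window peaks of its list, and was 230 and 262 bp wide. The site at 126 kb was 1 peak of 456 bp with a fold of 4.81 in control replicate 1. Control replicate 2 split it into 2 peaks of 246 and 317 bp, with folds of 4.60 and 3.91. Another site, at 140 kb, was called in control replicate 2 alone, with a fold of 5.95 and a width of 396 bp.

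The stretch from 295 to 358 kb had 6 sites, of which 2 were in both control lists. At 295 kb, control replicate 1 had a peak of 317 bp with a fold of 4.26, and control replicate 2 one of 639 bp with 5.86. Those 2 peaks overlapped by 18 bp and their summits were 560 bp apart, so they count as 1 site only by the least overlap. The site at 340 kb was broad, with 1002 bp and a fold of 5.67 in control replicate 1. Control replicate 2 had 2 peaks there, of 628 and 360 bp with folds of 6.59 and 6.25. The other 4 sites were called in control replicate 2 alone: 307 kb with a fold of 4.97, 344 kb with 5.18, and a pair at 357 and 358 kb with 4.01 and 4.55. Their widths ran from 200 to 360 bp.

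Between 478 and 658 kb lay 6 sites, 4 of them in both control lists. At 478 kb the folds were 4.76 and 4.47 in control replicates 1 and 2, with widths of 252 and 362 bp. At 578 kb they were 7.21 and 7.76, with the nearly equal widths of 613 and 618 bp. At 600 kb they were 3.80 and 4.12, with 220 and 306 bp. The site at 604 kb stood far above its neighbours, with a fold of 15.3 over 979 bp in control replicate 1 and 17.5 over 1070 bp in control replicate 2. By score it ranked 3 of 4031 peaks in control replicate 1 and 2 of 7112 in control replicate 2, and by fold 5 and 7. Control replicate 2 also had a peak of 200 bp with a fold of 2.96 that began 167 bp after the end of that peak, and one at 658 kb with 4.98 over 213 bp.

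The last 3 sites, all in both control lists, lay between 724 and 946 kb. The fold at 724 kb was low, at 4.16 and 3.19 in control replicates 1 and 2, with widths of 276 and 258 bp. At 915 kb it was 6.76 over 1005 bp and 7.58 over 650 bp. At 946 kb it was 6.85 over 279 bp and 7.96 over 320 bp, the second highest fold of the window in control replicate 2. Beyond this site no list had a peak in the remaining 734 kb of the window, and the next control peak on the chromosome started 1.02 Mb after it.

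Most window peaks of control replicate 1 had a counterpart in control replicate 2, and a smaller share did in the other direction. Of the 13 window peaks of control replicate 1, 12 had an overlapping peak in control replicate 2 (92.3%, with an exact Clopper-Pearson interval of 64.0% to 99.8%), and the same share over all peaks of control replicate 1 was 71.3%. In the other direction 14 of 22 window peaks (63.6%, interval 40.7% to 82.8%) were found in control replicate 1, against 40.4% over all peaks of control replicate 2. The intervals cover counting error only and treat peaks as independent, which neighbouring peaks are not. The sites at 126 and 340 kb each count as 2 peaks of control replicate 2 among the 14, and as 1 of control replicate 1. Nothing is therefore read from where the genome-wide shares lie beside the intervals. Requiring each peak to share 50% with the other lowered the first window share to 53.8%. In all, 12 sites were in both control lists, 1 in control replicate 1 alone and 8 in control replicate 2 alone.

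Levels at the 12 shared sites were compared between the controls. Log2 fold correlated between the control lists with r = 0.93 across the 12 sites, and with r = 0.87 across 11 without the site at 604 kb. Neighbouring sites of the same 2 libraries are not independent, so these are descriptions. Over all 2874 shared control peaks r was 0.52. For log2 reads over the genome mean, r was 0.88 across the 12 sites, 0.73 without the site at 604 kb, and 0.70 over all shared peaks. The difference in log2 fold between the lists had an SD of 0.27 at the window sites and 0.38 over all shared peaks. The fold of control replicate 2 was 0.695 to 1.38 times that of control replicate 1 and was the higher at 7 of the 12 sites. The summits were 73.5 bp apart in the median, and within 100 bp at 8 sites.

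**Figure D2:**
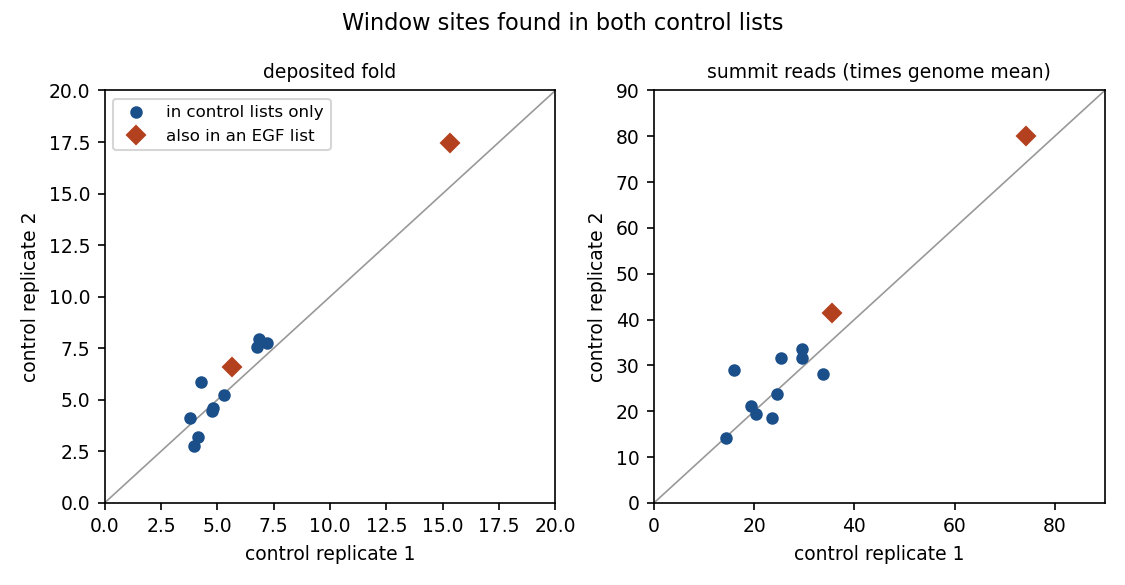
Deposited fold (left, a ratio) and summit reads as multiples of the genome mean (right) of the 12 window sites found in both control lists, control replicate 1 on the horizontal and control replicate 2 on the vertical axis; the grey line marks equal values, and diamonds mark the 2 sites also called with EGF. The site at 604 kb, with folds of 15.3 and 17.5, stands apart from the other 11.

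Compared with the remainder of chromosome 15, the window had more peaks per Mb in both control lists. Control replicate 1 had 5.20 peaks per Mb in the window and 3.20 elsewhere on the chromosome, between its first and last control peak, and control replicate 2 had 8.80 and 5.77. The ratio was 1.57 ± 0.0695 (SD, n = 2), and no test was run on it. It was 2.48 for a window without its outer 500 kb on both sides, since those ends are nearly empty. Among the 40 other windows of 2.5 Mb on chromosome 15, 7 were richer in peaks by control replicate 1 and 9 by control replicate 2. Over all chromosomes, 36 and 44 of 1029 other windows had more.

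The window peaks had many reads but not a high fold. In control replicate 1 the median summit stood at 24.5 times the genome mean, against 16.0 over all peaks of the list. Of the 13 peaks, 11 were above that list median. In control replicate 2 the window median was 28.2 against 15.9, and 21 of 22 peaks were above it. By fold the order was the other way round, with window medians of 4.81 and 4.98 against 5.84 in each whole list, and only 4 of 13 and 8 of 22 peaks above the list median. The pattern was not particular to the window. Over the rest of chromosome 15, 233 of 312 peaks of control replicate 1 and 393 of 562 of control replicate 2 were above the list median in reads. By fold, 130 and 201 of them were.

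The local input was high at these peaks and at those of the flanking stretches. Its median over the window was 3.89 times background in control replicate 1 and 4.28 times in control replicate 2, against 2.59 in both lists over the remainder of chromosome 15, and 1.30 over other chromosomes. In the adjoining 2.5 Mb before the window it was 3.11 and 3.89 in control replicates 1 and 2, from 18 and 23 peaks, and in the 2.5 Mb after it 3.53 and 3.27, from 7 and 17 peaks. The ranges of the window and its flanks overlapped in both lists. From 100 kb before Myc onwards, the 12 and 21 window peaks of the control lists ran from 2.59 to 5.19 and from 2.59 to 9.07 times. The peak 542 kb before Myc was lower than all of them, at 1.66 and 1.63. A call on a higher local input needs more reads, so the count of window peaks above the list median in reads is partly set by the calling. The libraries of a group had the same genome-wide input value, so they may share 1 input and do not show its spread. DNA copy number was not tested.

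**Figure D3:**
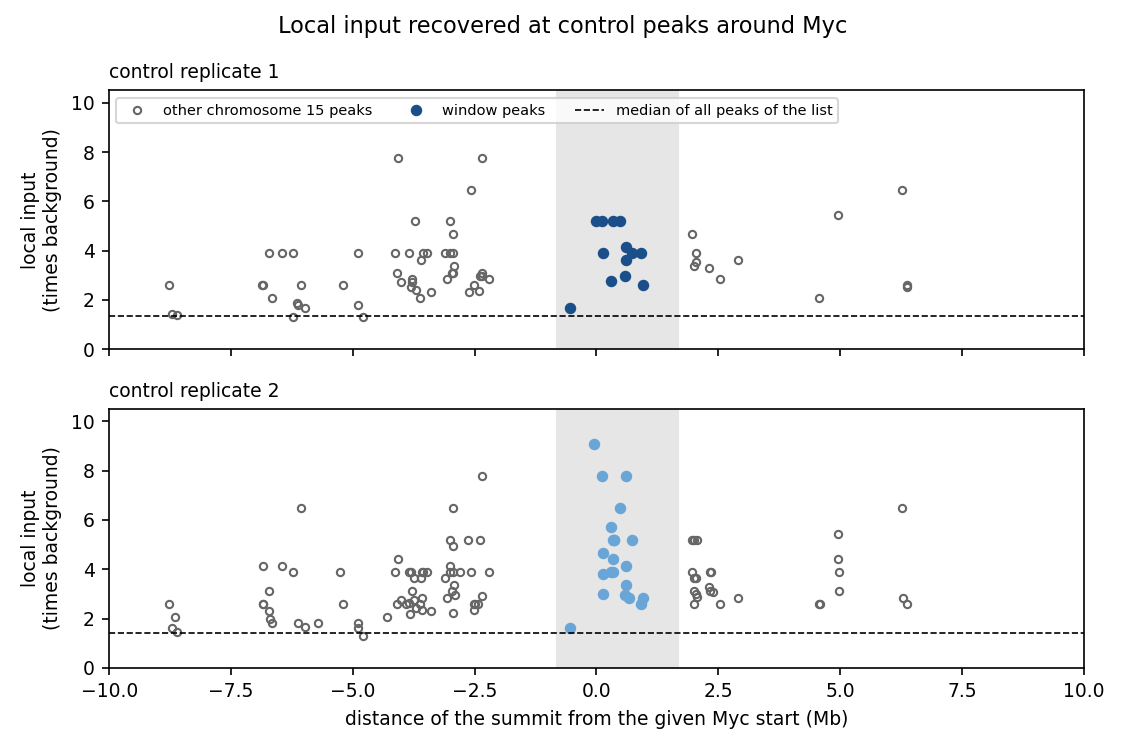
Local input at control peaks in the window and in the stretches of chromosome 15 around it, as a multiple of the genome-wide input background (vertical axis). The horizontal axis is the distance of the summit from the given Myc start (Mb), and peaks farther out on the chromosome are not drawn. The grey band is the window and the dashed line the median of all peaks of the list. Nearly all window peaks sit at 2.59 times background or above, and the exception is the peak 542 kb before Myc.

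Broad peaks were present in the control lists of the window and not in the EGF lists. Peaks of 500 bp or wider were 4 of 13 (30.8%) in control replicate 1 and 5 of 22 (22.7%) in control replicate 2, against 11.0% and 12.9% of all peaks of those lists. Over the rest of chromosome 15 the shares were 17.6% and 16.4%, also above those of the whole lists. The broad window peaks lay at 340, 578, 604 and 915 kb in both lists, and at 295 kb in control replicate 2. The 3 EGF peaks of the window were 215 to 362 bp wide. Neither EGF list had a peak of 500 bp anywhere in the genome. Width is the stretch that passes the calling bound of its list. The weakest peaks had a −log10 p of 7.07 and 8.00 in the EGF lists, against 4.43 and 4.25 in the control lists. Widths of the groups may therefore not have been taken at a common bound on p.

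With EGF, 2 of the 21 window sites had a peak, those at 604 and 340 kb. Control libraries had 17.5 ± 6.36 window peaks and EGF libraries 1.50 ± 0.707 (SD, n = 2 each), 11.7-fold fewer. The length under them was 7.39 ± 1.73 kb without EGF and 0.440 ± 0.110 kb with it, 16.8-fold less. In both measures each EGF library lay below each control library. The length also depends on peak widths, which may not have been taken at a common bound on p. No p is given for either, since the choice of the window used an EGF peak that is counted here. Over all chromosomes the number was 145-fold lower with EGF. On the log2 scale the number in the window fell by 3.54, and it fell by 2.66 when 1 bound on the p of a peak was applied to all 4 lists. Since the window was chosen with an EGF peak in view, its smaller fall is not a result about the region.

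Of the 12 control replicate 1 peaks of the window shared with control replicate 2, 2 (16.7%, interval 2.09% to 48.4%) were called with EGF, against 2.05% of all such peaks. The share was 8.33% without EGF replicate 2, which alone holds the peak at 340 kb, and 0% under a reciprocal overlap of 50%, which EGF peaks of 215 to 362 bp cannot reach against much wider control peaks. Nothing is read from the difference to the genome-wide share, which the choice of the window bears on directly.

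The site at 604 kb was called in all 4 lists and was the highest by score in both EGF lists. By fold it ranked 7 of 57 in EGF replicate 1 and 9 of 20 in EGF replicate 2. It covered chr15:62423449-62424427 in control replicate 1, chr15:62423329-62424398 in control replicate 2, chr15:62423653-62424014 in EGF replicate 1 and chr15:62423735-62424037 in EGF replicate 2. The EGF peaks thus lay within both control peaks, and the 4 summits fell within 103 bp of each other. In the same order its fold was 15.3, 17.5, 9.12 and 7.54, and its width 979, 1070, 362 and 303 bp. Both EGF libraries were below both control libraries in each of these, although the widths may not have been taken at a common bound on p.

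Reads at that summit numbered 88 and 91 without EGF, and 63 and 60 with it. As multiples of the genome mean these were 74.3, 80.2, 59.3 and 48.7. The exact Poisson intervals, which cover counting error only, were 59.6 to 91.5 and 64.5 to 98.4 in the control libraries and 45.6 to 75.9 and 37.1 to 62.7 in the EGF libraries, so those of control replicate 1 overlapped both EGF intervals and that of control replicate 2 overlapped that of EGF replicate 1. The EGF mean was 0.699 times the control mean (77.2 ± 4.15 and 54.0 ± 7.53, SD, n = 2 each). Divided by the local input, the 4 values were 20.5, 23.8, 12.5 and 10.3, and the EGF mean was 0.515 times that of control. Local input there stood at 3.63 and 3.37 times background for the controls and at 4.74 times for both EGF libraries. The site entered by being called with EGF, and it was not tested.

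**Figure D4:**
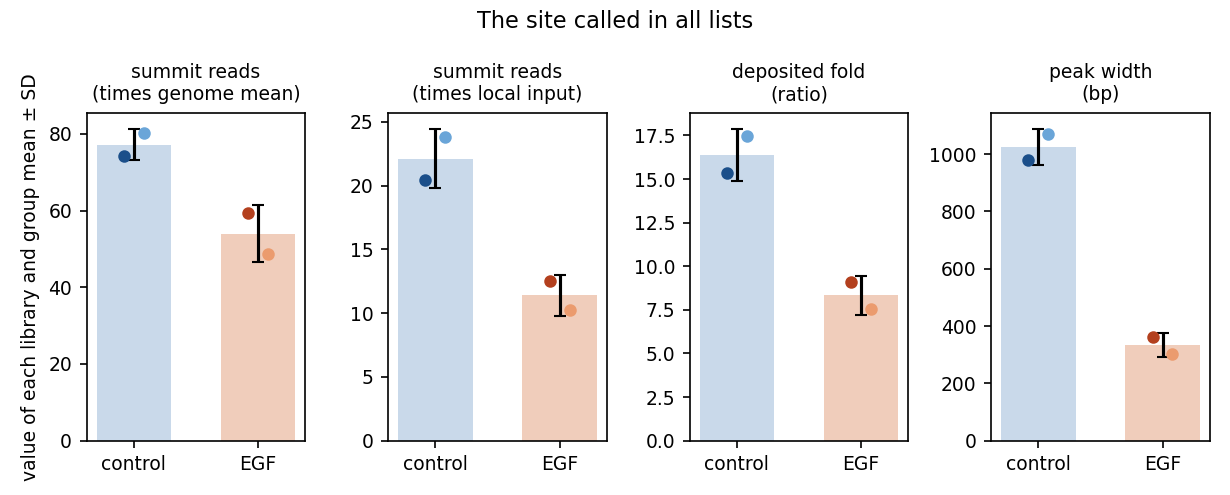
Values at the site 604 kb downstream of Myc in the 2 control and 2 EGF libraries: summit reads as multiples of the genome mean and of the local input, deposited fold, and peak width in bp. Points are libraries, bars group means and error bars the SD (n = 2). Both EGF points lie below both control points in each panel, although the widths may not have been taken at a common bound on p.

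The site at 340 kb was called in both control lists and in EGF replicate 2. The EGF peak, at chr15:62160468-62160682, had a fold of 6.13 and a width of 215 bp and ranked 16 of 20 peaks by score. It lay within the control replicate 1 peak, chr15:62159972-62160973, and overlapped the second of the 2 control replicate 2 peaks, chr15:62160519-62160878. The summits had 42 reads in control replicate 1, 47 and 39 in the 2 peaks of control replicate 2, and 34 in EGF replicate 2. These were 35.5, 41.4, 34.4 and 27.6 times the genome mean, and the counting intervals of all 4 overlapped. Over the local input they were 6.84, 7.99, 7.80 and 9.69 times, so the EGF value was the highest of the 4 instead of the lowest. The direction at this site thus depended on the scaling, and EGF replicate 1 gave no value.

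Several strong control peaks of the window had no EGF counterpart. The 5 strongest of these were taken by score in control replicate 2 among peaks shared by the controls. They began with the first of the pair at 340 kb, whose partner was called with EGF. The site at 340 kb was thus called with EGF, and its first peak is listed only because control replicate 2 split the site. The sites at 946, 578, 915 and 295 kb followed. The site at 295 kb was weak in control replicate 1, where its fold was 4.26 and it ranked 3555 of 4031 by score. The input of the EGF group was shallower, and the weakest peaks of its lists had a −log10 p of 7.07 and 8.00, against 4.43 and 4.25 for the controls.

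To set control peaks beside the weakest EGF peaks, each was rescored at the input depth of the EGF lists. Its reads over the genome mean and its local input were kept. Keeping the local input is an assumption: at 340 kb it was 5.19 times background in control replicate 1 and 2.85 times in EGF replicate 2. Then 5 of the 13 window peaks of control replicate 1 and 10 of the 22 of control replicate 2 reached the smallest −log10 p of at least 1 EGF list (38.5% and 45.5%, against 33.0% and 34.0% of all peaks of those lists). In each control list 2 of those peaks were called with EGF, against 3.61% and 2.23% of all peaks that pass in control replicates 1 and 2. Nothing is read from that difference, since the window was chosen with an EGF peak in view. The sites at 578, 915 and 946 kb passed from both control lists and were not called with EGF. The remaining 8 and 12 window peaks, the one at the Myc start among them, did not reach the bound when rescored. That bound is the weakest peak each EGF list holds. These had a −log10 q of 2.07 and 2.47, against 1.31 and 1.38 for the weakest control peaks. It is not a cutoff known to be set by depth, so whether these peaks could have been called with EGF cannot be told.

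The window edges fell in stretches without peaks. The nearest control peaks outside lay 2201 and 2205 kb before Myc, with folds of 5.20 and 4.67 in control replicates 1 and 2, and 1969 and 1965 kb after it, with 6.73 and 3.65. The nearest inside were those at 542 kb before and 946 kb after Myc, so moving both edges inwards by 500 kb removed the first of these from both control lists and no other peak.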

How the data were processed

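The submitters' processing notes name the build mm9, the aligner Bowtie2 (2.3.4.2), the peak caller MACS2 (2.1.1.20160309.0), and also SAMtools and deepTools (3.0.2). Their options were not given in the sources used here. Each library has its own deposited peak list, with start, end, summit, score, fold ratio, −log10 p and −log10 q. The deposited score is 10 times −log10 q, rounded down. Positions are printed counted from 1. The 4 lists hold 4031, 7112, 57 and 20 peaks.

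Summit reads and local input were recovered from the deposited fold ratio and −log10 p, with the Poisson tail of MACS2, 1 scaling factor per library, and input counted at 200 bp, 1 kb, 10 kb and genome-wide, the largest being used. These sizes are inferred from the values. Each peak had 1 solution (100%) within 2e-04 of its −log10 p, and the method was tested on simulated data. Overlap means at least 1 bp. Number and length were compared by log2 ratios of group means; the planned exact permutation test was run and its p is left out, since the window was chosen with an EGF peak in view (Python 3.11.15, scipy 1.17.1). All window peaks are named. The members and tests were chosen with earlier results of these data known.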

Additional observations from a re-analysis of the deposited data

How the results depend on the processing

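The 7 results had 46 alternative values, of which 40 stayed on the same side or within the interval or spread, 6 moved and 0 reversed. Rescoring control peaks at the EGF settings was chosen after seeing the data, and the share of shared control peaks called with EGF among those that pass was 40.0%; the other alternatives were planned. The share of control replicate 1 peaks found in control replicate 2 was 53.8% with 50% of both peaks shared and 61.5% with the summit of the other peak inside. The share of shared control peaks called with EGF was 0% with 50% of both peaks shared, and ran from 8.33% to 16.7% with each library left out. The log2 ratio of summit reads at the site 604 kb from Myc, −0.52 over the genome mean, was −0.96 over the local input and −0.98 by the deposited fold, and ran from −0.67 to −0.38 with each library left out. The density ratio was 2.48 without the outer 500 kb of the window and 1.53 to 1.62 with a control library left out. With each library left out, the log2 ratio ran from −4.13 to −3.12 for peak number and from −4.35 to −3.81 for covered length. The local input was 3.89 to 4.28 times background. A replicate block gave log2 ratios of −3.58 for number, −4.07 for covered length and −0.52 for summit reads. The libraries share only a number: at the 16 sites of the genome called in all 4 lists, the deviations of same-numbered libraries correlated with r = −0.09. Number and length were judged by sign alone, which says little about stability. The fewest reads at a called summit were 11, 10, 21 and 21, which limits what a missing peak shows.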
